A study of Arabidopsis thaliana with 6 samples.

Results

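UDP-glycosyltransferase (UGT) genes were described in root tips of Arabidopsis thaliana, in a quadruple mutant of class III homeodomain-leucine zipper genes and in its wild type. Members were all genes named UGT followed by a number and a letter, in the platform's probe table or in the symbols and synonyms of the TAIR10.1 gene table, that a probe set of the ATH1 array names alone. The rule found 51 genes of 13355 genes named in this way, 47 by the probe table and 4 by the gene table. Each had 1 probe set, and the 51 genes fell into 23 subfamilies, a subfamily being the number and letter of the name, such as UGT78D. The gene table holds 64 genes of such names. Of the other 13, 9 are not listed in the probe table and 4 (UGT71D1, UGT73B2, UGT73B3 and UGT89B1) belong to probe sets that name several genes, so they were not used here. The 9 unlisted genes are UGT73C5, UGT73C6, UGT74E2, UGT74F2, UGT75B1, UGT75B2, UGT81A1, UGT84A2 and UGT85A1.

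UGTs transfer a sugar from a nucleotide donor such as UDP-glucose to small molecules, which changes their solubility, activity, storage and transport. Their acceptors in Arabidopsis include flavonoids, monolignols and other phenylpropanoids, glucosinolate precursors, sterols, plant hormones and foreign compounds. Subfamily members often lie side by side on a chromosome, and many act on several acceptors in vitro, so the acceptor named here for a gene is the one it is best known for. No UGT sequence was in the sources used here, and none is shown.

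The mutant carries athb8-11, cna-2, phb-13 and phv-6, alleles of the transcription factor genes ATHB8, CNA, PHB and PHV that pattern vascular tissue. The wild type is Col er-2, and whether the mutant carries er-2 is not stated in its labels. Seedlings of both genotypes were 4 days post germination and untreated, and the last 0.5 mm or so of their primary roots was taken by manual dissection. About 200 tips were pooled for each of 3 replicates per genotype, which the design text calls biological, and 250 ng of total RNA went into each array. Because each array holds a whole tip, fewer cells of a type and less RNA per cell cannot be told apart in any value below.

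Values are log2 signals of probe sets, in the form RMA gives (background corrected, normalized between arrays and summarised over probes), and the 6 arrays had median signals between 5.56 and 5.59. Any pair of arrays correlated at 0.989 to 0.996 across probe sets. PHV, 1 of the mutated genes and the only one of them with a named probe set, measured 5.66 ± 0.15 (SD, n = 3) in Col er-2 and 4.74 ± 0.16 in the mutant, with no overlap between the groups. Its difference had a limma adjusted p of 0.0639, and the position of its probes with respect to the phv-6 lesion is not given. Of 13 root tip markers, 5 were named, with mean signals from 3.85 (CLE40) to 6.44 (BBM), and 2 of the 5, AGL42 and CLE40, lay below the 25th percentile of all probe sets. BBM was higher in the mutant by 0.42 without overlap (limma unadjusted p = 0.00919, adjusted p = 0.463). The other named root tip markers differed by -0.14 (JKD) to 0.08 (ACR4), mutant minus Col er-2. Whether the tips differed in cell content was not tested. The 3 named green tissue markers of 8 had mean signals from 4.86 to 5.67.

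Signals were high for a minority of the UGT genes. The mean over the 6 arrays exceeded a log2 signal of 7.82, the upper quartile (75th percentile) of the whole table, for 8 of 51 genes (15.7%, against 25.0% of all probe sets and 21.8% of named genes). These were UGT72E2, UGT73B4, UGT74B1, UGT74D1, UGT76B1, UGT78D2, UGT80A2 and UGT85A2. Below the median of 5.57 lay 28 of 51 (54.9%, where the median parts all probe sets evenly), and below the 25th percentile of 4.40 lay 9 (17.6%, against 25.0%). Probe sets differ in how well they bind, so these bands place signals and not transcript amounts, and a low signal is not read as absence.

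**Figure D1:**
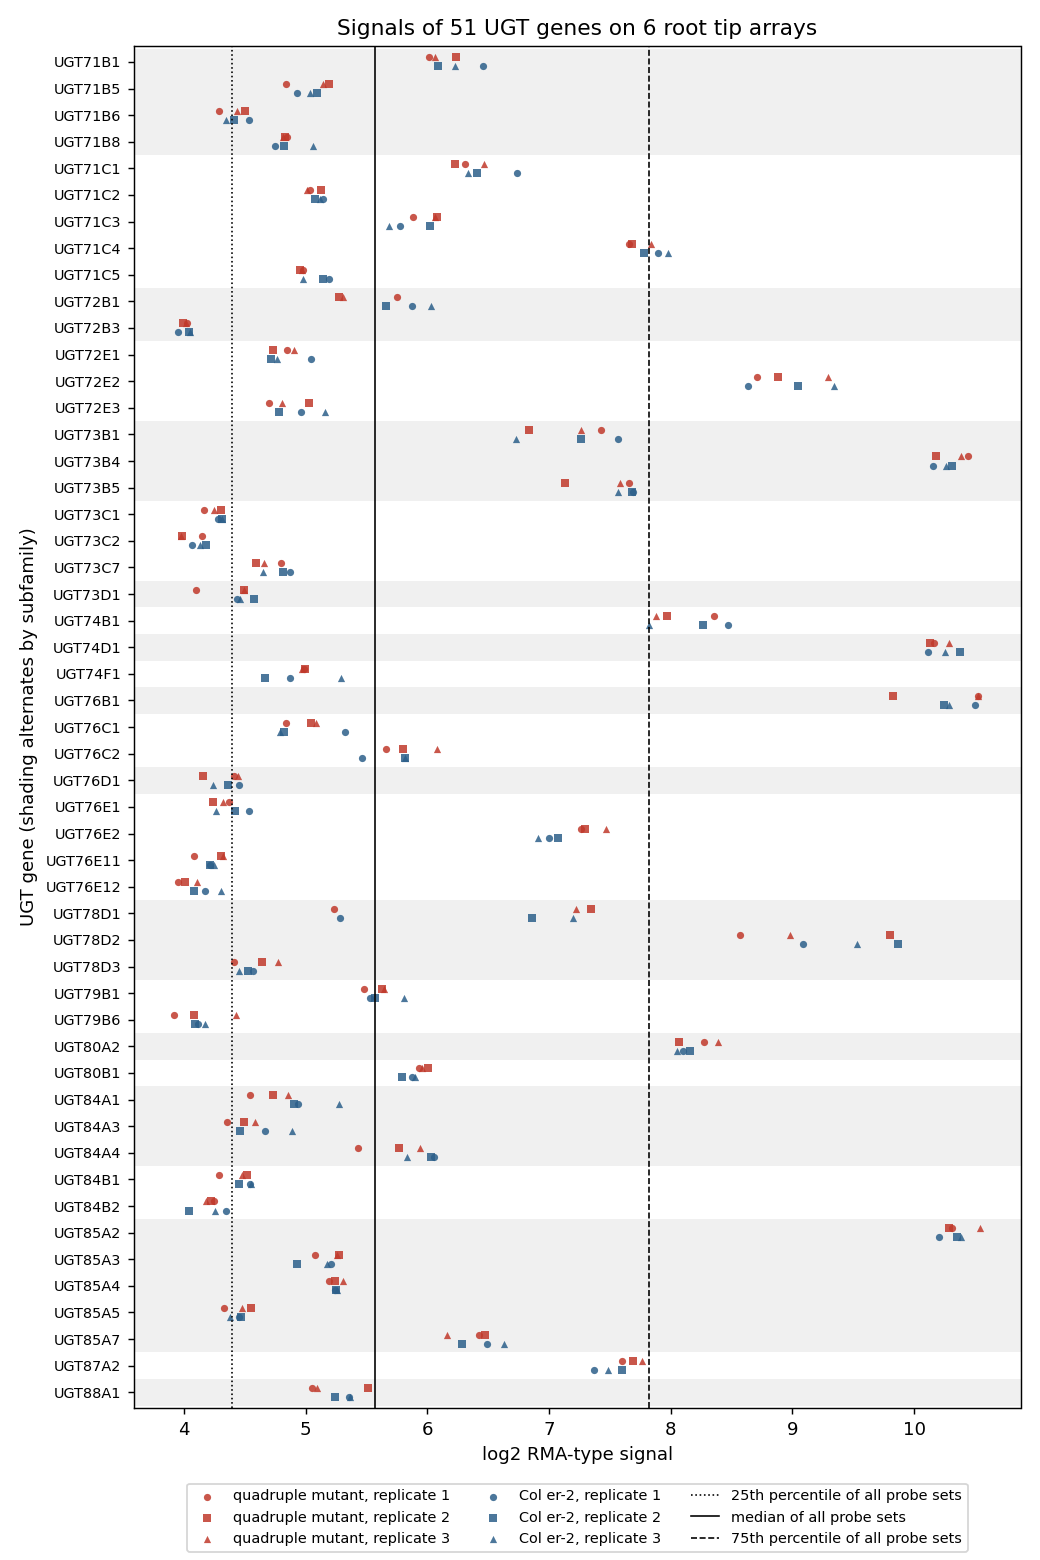
Log2 signals (x axis) of the 51 UGT genes (y axis, shaded by subfamily) on 3 arrays of the quadruple mutant (red, upper) and 3 of Col er-2 (blue, lower), with symbols for the replicate and vertical lines at the quartiles of all probe sets. Of the 51 genes, 8 have means to the right of the 75th percentile and 28 to the left of the median, and UGT78D1 is split, with replicate 1 of both genotypes far to the left.

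Among the UGTs named here for hormones and defence signals, UGT74D1 and UGT76B1 lay above the 75th percentile. Each was the only measured gene of its subfamily. UGT74D1, which glucosylates auxins, had log2 signals of 10.16, 10.13 and 10.29 on the mutant arrays and 10.11, 10.38 and 10.25 on the Col er-2 arrays. UGT76B1, which glucosylates isoleucic acid and salicylic acid and acts in defence, had signals of 10.53, 9.82 and 10.53 in the mutant and 10.50, 10.25 and 10.29 in Col er-2. For both genes the groups overlapped, and mutant replicate 2 was the lowest array of UGT76B1. UGT84B1, the other gene named here for auxin, had a mean of 4.47, at percentile 28.4 of all probe sets. UGT74F1, which glucosylates salicylic acid, had a mean of 4.96. UGT76C1 and UGT76C2, which glucosylate cytokinins at a nitrogen of the ring, had means of 4.98 and 5.77, to either side of the median. UGT71B6 and UGT71C5, which glucosylate abscisic acid, were at 4.42 and 5.04, both below it.

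In the phenylpropanoid group, UGT72E2, which glucosylates coniferyl and sinapyl alcohol, had log2 signals of 8.71, 8.88 and 9.29 in the mutant and 8.64, 9.04 and 9.35 in Col er-2. Replicate 1 was the lowest array in both genotypes, and the mutant signals lay within the range of Col er-2. UGT72E3, with the same acceptors, and UGT72E1, which acts on the matching aldehydes, had means of 4.90 and 4.83. UGT84A1, UGT84A3 and UGT84A4, which form glucose esters of hydroxycinnamic acids such as sinapic acid, had means of 4.87, 4.58 and 5.84, and only UGT84A4 lay above the median.

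Of the remaining genes with known acceptors, UGT74B1, which adds the glucose of glucosinolates, had log2 signals of 8.36, 7.97 and 7.88 in the mutant and 8.47, 8.26 and 7.82 in Col er-2. UGT80A2, a sterol glucosyltransferase, had signals of 8.27, 8.07 and 8.39 in the mutant and 8.10, 8.16 and 8.05 in Col er-2. In both genes each genotype's range overlapped the other's. UGT80B1, the second sterol glucosyltransferase, had a mean of 5.91. UGT73B4, which conjugates breakdown products of the explosive TNT, had signals of 10.44, 10.18 and 10.39 in the mutant and 10.15, 10.31 and 10.26 in Col er-2. UGT73B was the only subfamily of 3 or more genes with all measured members above the median, UGT73B1 and UGT73B5 having means of 7.18 and 7.55. UGT73C was the only one with no measured member above it, since UGT73C1, UGT73C2 and UGT73C7 had means from 4.08 to 4.73. UGT73C5 and UGT73C6 had no listed probe set, and UGT73B2 and UGT73B3 belong to probe sets that name several genes. The level of either whole subfamily is therefore not known here.

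The 5 measured genes of UGT85A spanned 4.44 to 10.35. UGT85A2 had log2 signals of 10.31, 10.29 and 10.54 in the mutant and 10.21, 10.35 and 10.39 in Col er-2, at percentile 94.0 of all probe sets. UGT85A7 had a mean of 6.41, and UGT85A3, UGT85A4 and UGT85A5 had means of 5.15, 5.25 and 4.44, below the median. The 5 genes of UGT71C lay between 5.04 and 7.81, with UGT71C4 highest at percentile 74.8. In UGT76E, UGT76E2 had a mean of 7.17, whereas UGT76E1, UGT76E11 and UGT76E12 had means of at most 4.36, all below the 25th percentile. The genes with the lowest means were UGT72B3, UGT73C2, UGT76E12, UGT79B6 and UGT84B2, from 4.01 to 4.22.

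The comparison of genotypes asked whether UGT transcript levels in the root tip depend on the mutated genes. With limma and Benjamini-Hochberg adjustment over all 22746 probe sets, 0 of the 51 genes passed an adjusted p under 0.05, where 0.0264% of all probe sets did (6 of 22746). At an unadjusted p under 0.05 there were 3 of 51 (5.88%, against 7.47% of all probe sets), 1 higher and 2 lower in the mutant (1.96% and 3.92%, against 4.21% and 3.26%). The count of 3 became 6 without wild type replicate 2 (11.8%, where the share of all probe sets became 8.09%). An equal-variance test per probe set gave 2 at an unadjusted p under 0.05 (3.92%, against 6.92%) and 0 after adjustment. Those 2, UGT76E2 and UGT80B1, were both higher in the mutant, and UGT72B1 and UGT84A1 were no longer among them. Genotypes did not overlap in 5 of 51 (9.80%, against 13.1% of all probe sets). UGT76E2, UGT80B1 and UGT87A2 had the higher signals in the mutant (5.88%, against 7.55%), and UGT71C5 and UGT84A1 the lower (3.92%, against 5.57%).

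Differences were small in both directions. They ran from -0.41 to 0.35 on the log2 scale, mutant minus Col er-2, so the furthest was a 1.33-fold difference in signal. The 95% confidence interval included 0 for 48 of 51 genes, and for 41 of 51 it lay within 0.5 of 0 on either side, so larger differences of those signals lie outside it. The median difference was -0.05, against 0.0076 over all probe sets and 0.0085 over named genes. Of the 51 differences 33 were below 0 (64.7%, against 47.4% of all probe sets), and this count was 28 with replicates 2 and 3 of both genotypes alone (54.9%, against 46.0%). Without mutant replicate 3 the count was 39 (76.5%, against 46.8%), and without wild type replicate 1 it was 29 (56.9%, against 50.3%). Centring each array on its median gave 38 of 51 (74.5%), where the share of all probe sets moved to 55.9%.

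**Figure D2:**
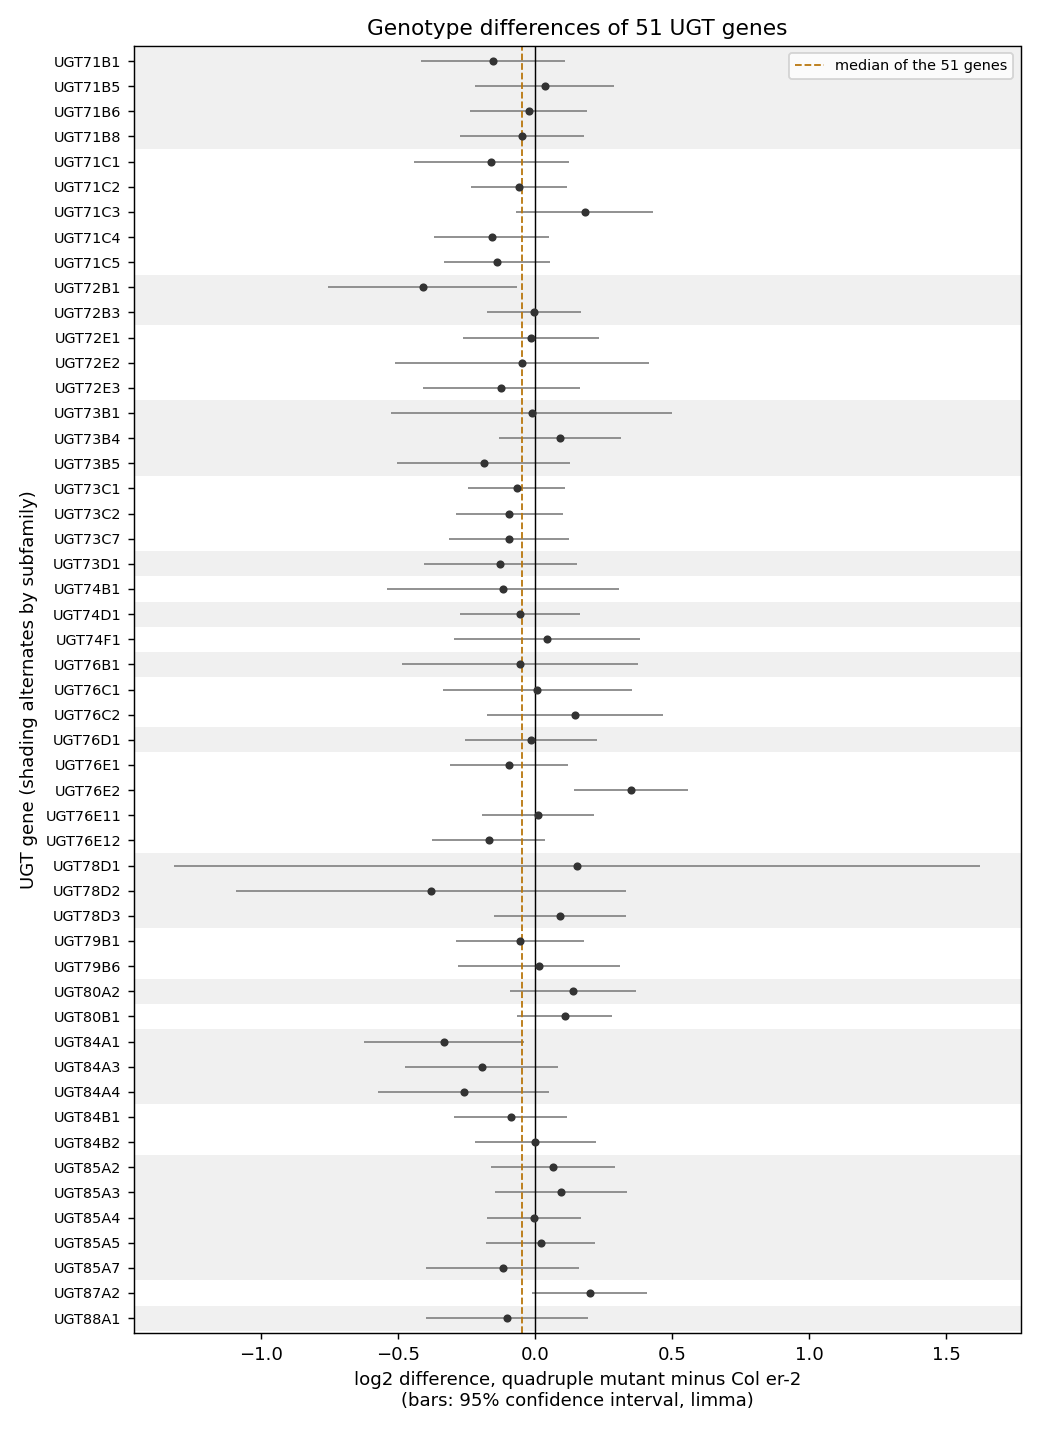
Log2 difference in signal, quadruple mutant minus Col er-2 (x axis), for the 51 UGT genes (y axis, shaded by subfamily), with bars for the 95% confidence interval of the limma fit on 3 arrays per genotype and a dashed line at the median of the 51. Bars of 48 genes cross 0, and those of UGT78D1 and UGT78D2 are the widest.

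UGT76E2 had the smallest p of the family. The gene belongs to a subfamily known for glucosylating flavonols and jasmonate derivatives, though the acceptor of this member is not given here. Its log2 signals were 7.26, 7.30 and 7.47 on the mutant arrays and 7.00, 7.07 and 6.91 on the Col er-2 arrays. Every mutant array lay above every wild type array. The difference was 0.35 (95% confidence interval 0.14 to 0.56), with an unadjusted p of 0.00468 and a limma adjusted p of 0.396. Its neighbour UGT76E1 differed by -0.09, UGT76E11 by 0.01 and UGT76E12 by -0.17, and none of the 4 passed.

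UGT72B1, which glucosylates monolignols and chlorinated phenols, had log2 signals of 5.75, 5.27 and 5.31 in the mutant and 5.87, 5.66 and 6.03 in Col er-2. The mutant replicate 1 lay above wild type replicate 2, so the groups overlapped. The difference was -0.41 (95% confidence interval -0.75 to -0.06), with an unadjusted p of 0.0255 and a limma adjusted p of 0.579. UGT87A2, a UGT that affects flowering time, was at 7.60, 7.69 and 7.76 in the mutant and 7.37, 7.60 and 7.48 in Col er-2. The groups were 0.0012 apart at the nearest, and the difference of 0.20 had an adjusted p of 0.694.

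In UGT84A, the hydroxycinnamate esterifying enzymes, each of 3 measured genes had a mutant mean below that of Col er-2, and 0 of 3 passed the adjusted threshold of limma. This direction was not particular to UGT84A, since each of 3 measured genes was also lower in UGT72E and in UGT73C. Of all 51 UGT differences, 64.7% were below 0, against 47.4% of all probe sets. The log2 signals of UGT84A1 were 4.54, 4.73 and 4.85 in the mutant and 4.93, 4.91 and 5.28 in Col er-2, with no overlap. Its difference of -0.33 had an unadjusted p of 0.0305 and an adjusted p of 0.604, and it was -0.21 without wild type replicate 3. UGT84A4 was at 5.43, 5.76 and 5.94 in the mutant and 6.05, 6.03 and 5.83 in Col er-2, a difference of -0.26 (adjusted p = 0.741 with limma). It overlapped between genotypes, and the difference was -0.12 without mutant replicate 1 and -0.08 with replicates 2 and 3 of both genotypes alone. UGT84A3 differed by -0.19 (adjusted p = 0.794 with limma), by -0.09 without wild type replicate 3 and by -0.30 without wild type replicate 2. The green tissue markers RCA, LHCB4.1 and LHCB4.2 also had lower mean signals in the mutant, by -0.22 to -0.33, with wild type replicate 3 the highest array in each. RCA and LHCB4.2 did not overlap between genotypes, whereas LHCB4.1 did. In that order of the 3 genes, the limma unadjusted p was 0.0893, 0.195 and 0.0197, and the adjusted p was 0.741, 0.817 and 0.555. The mean signal of the 3 markers ran from 5.02 to 5.13 on the mutant arrays and from 5.12 to 5.62 on those of Col er-2, and its part in the UGT84A values was not tested.

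Other genes among the 10 smallest p were UGT71C3, UGT71C4, UGT71C5 and UGT76E12. UGT71C4 and UGT71C5 differed by -0.16 and -0.14 and UGT71C3 by 0.18, with limma adjusted p from 0.770 to 0.791. The signals of UGT71C5 were nearly level in the mutant, at 4.98, 4.96 and 4.97, and were 5.19, 5.14 and 4.98 in Col er-2, 0.0037 apart at the nearest. UGT71C3 differed by 0.28 without wild type replicate 2 and by 0.11 without wild type replicate 3, and UGT76E12 by -0.11 without wild type replicate 3. Of the genes with high signals, UGT74D1, UGT76B1, UGT73B4, UGT85A2, UGT72E2, UGT74B1 and UGT80A2 differed by -0.12 to 0.14, with adjusted p from 0.820 to 0.982. UGT80A2 had the highest of these differences, which was 0.23 without mutant replicate 2 (unadjusted p = 0.0419, limma adjusted p = 0.772) and 0.07 without mutant replicate 3. UGT78D2, the remaining gene above the 75th percentile, differed by -0.38 (limma adjusted p = 0.848).

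The flavonol genes UGT78D1 and UGT78D2 had the widest ranges over the 6 arrays among the UGT genes. UGT78D1, which adds rhamnose to flavonols, was singled out after its values were seen. Its log2 signals were 5.23, 7.34 and 7.22 on mutant replicates 1 to 3 and 5.28, 6.86 and 7.19 on those of Col er-2. Replicate 1 of both genotypes lay at least 1.58 below the other 4 arrays. A gap of over 1 in this direction occurred in 4 of 22746 probe sets. The range over the 6 arrays was 2.11, at percentile 99.7 of all probe sets, whereas the median range was 0.36 over the UGT genes and 0.34 over all probe sets. The genotype difference of UGT78D1 was 0.15 (95% confidence interval -1.32 to 1.62), and with replicates 2 and 3 alone it was 0.26 (-0.07 to 0.59), a narrower interval that still included 0.

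UGT78D2, which adds glucose to flavonols and anthocyanidins, had log2 signals of 8.57, 9.80 and 8.98 in the mutant and 9.09, 9.87 and 9.53 in Col er-2. Replicate 1 was the lowest array of each genotype and replicate 2 the highest, but mutant replicate 3 lay below wild type replicate 1. The difference of -0.38 (95% confidence interval -1.09 to 0.33) had a limma adjusted p of 0.848 and depended on single arrays, at -0.10 without mutant replicate 1, -0.72 without mutant replicate 2, -0.58 without wild type replicate 1 and -0.19 without wild type replicate 2. UGT78D3, which adds arabinose to flavonols, was at 4.56 on average and varied by 0.36 over the arrays. The flavonoid genes UGT79B1, an anthocyanin xylosyltransferase, and UGT79B6, a flavonol glucoside glucosyltransferase known from pollen, had means of 5.61 and 4.14 and differed by -0.06 and 0.01.

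CHIL, a chalcone isomerase-like protein that promotes flavonoid synthesis, showed replicate 1 low in both genotypes. Its log2 signals were 9.79, 11.09 and 10.77 in the mutant and 10.48, 11.23 and 11.17 in Col er-2. DFR and BAN, which act in the anthocyanin and proanthocyanidin branches, had means of 4.30 and 4.57, where replicate 1 did not stand apart. Outside the flavonoid list, HCT, an acyltransferase of monolignol synthesis, had the same order at signals of 7.79, 8.33 and 8.15 in the mutant and 7.86, 8.37 and 8.40 in Col er-2. The higher array of replicate 1 minus the lowest of the other 4 was -0.29 for HCT and -0.30 for CHIL. These were 2 of the 26 named supply and acceptor genes (7.69%, against 12.1% of all probe sets). Among the same 26 genes, GSTU27 of the detoxification list had both arrays of replicate 1 above the other 4, by 0.07. The order of HCT and CHIL, both arrays of replicate 1 below the other 4, was found in 8 of 51 UGT genes (15.7%, against 12.1%), and the reverse order in UGT73B1 and UGT74B1 (3.92%, against 6.80%). Both shares are near those of all probe sets, and apart from UGT78D1 the gaps of these UGT genes were at most 0.18. What sets replicate 1 apart was not tested, and the labels name no batch.

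**Figure D3:**
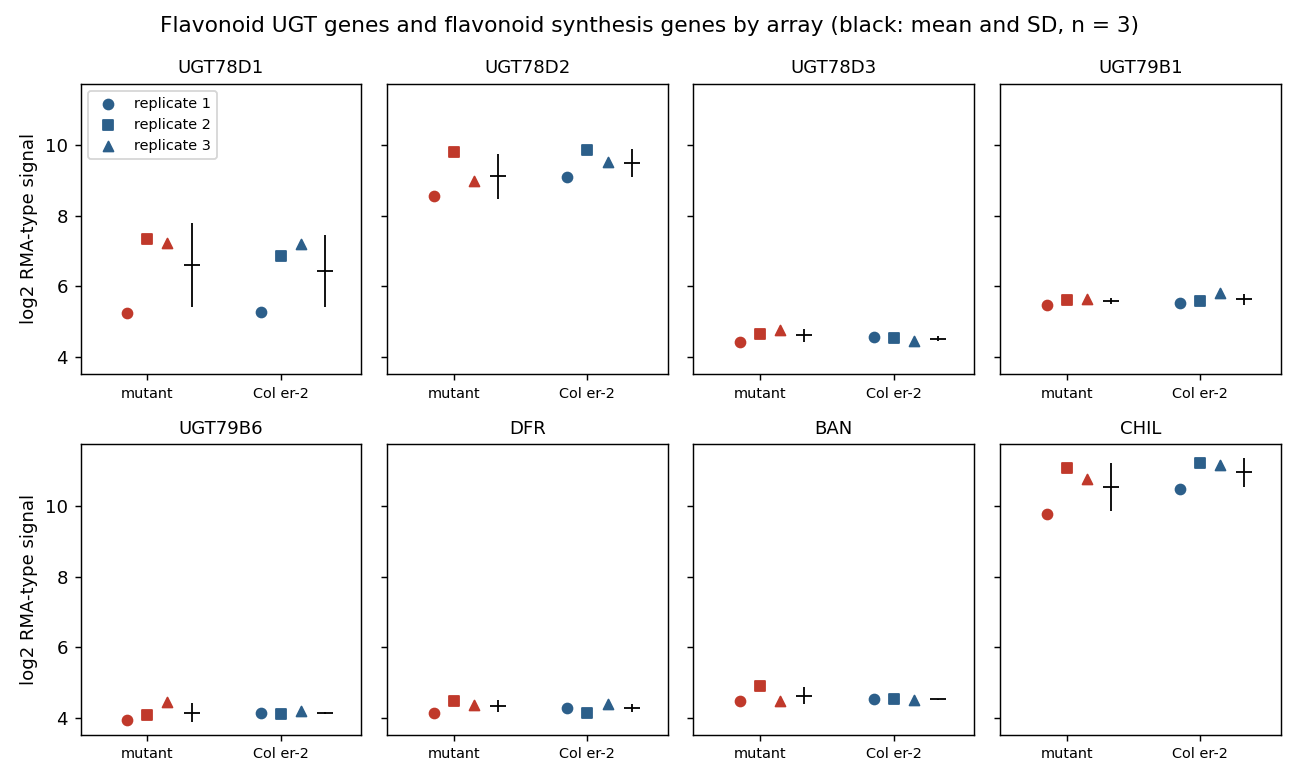
Log2 signal (y axis, shared by all panels) of UGT78D1, UGT78D2, UGT78D3, UGT79B1, UGT79B6 and the named flavonoid synthesis genes in the mutant (red) and Col er-2 (blue). Each replicate has its symbol, and black marks give the mean and SD of 3 arrays. Not every UGT gene that may act on flavonoids is shown, since the UGT76E genes are left out. In UGT78D1 the circles of replicate 1 lie at 5.23 and 5.28 and the other arrays at 6.86 to 7.34, and CHIL has its lowest array in replicate 1 of each genotype.

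The range over the 6 arrays was under 0.5 for 34 of 51 UGT genes (66.7%, against 77.9% of all probe sets). It was over 1 for UGT78D1 and UGT78D2 alone (3.92%, against 2.78%). UGT73B1 came next at 0.83, with replicate 1 the highest array of both genotypes, then UGT72B1 at 0.75 and UGT84A1 at 0.73.

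**Figure D4:**
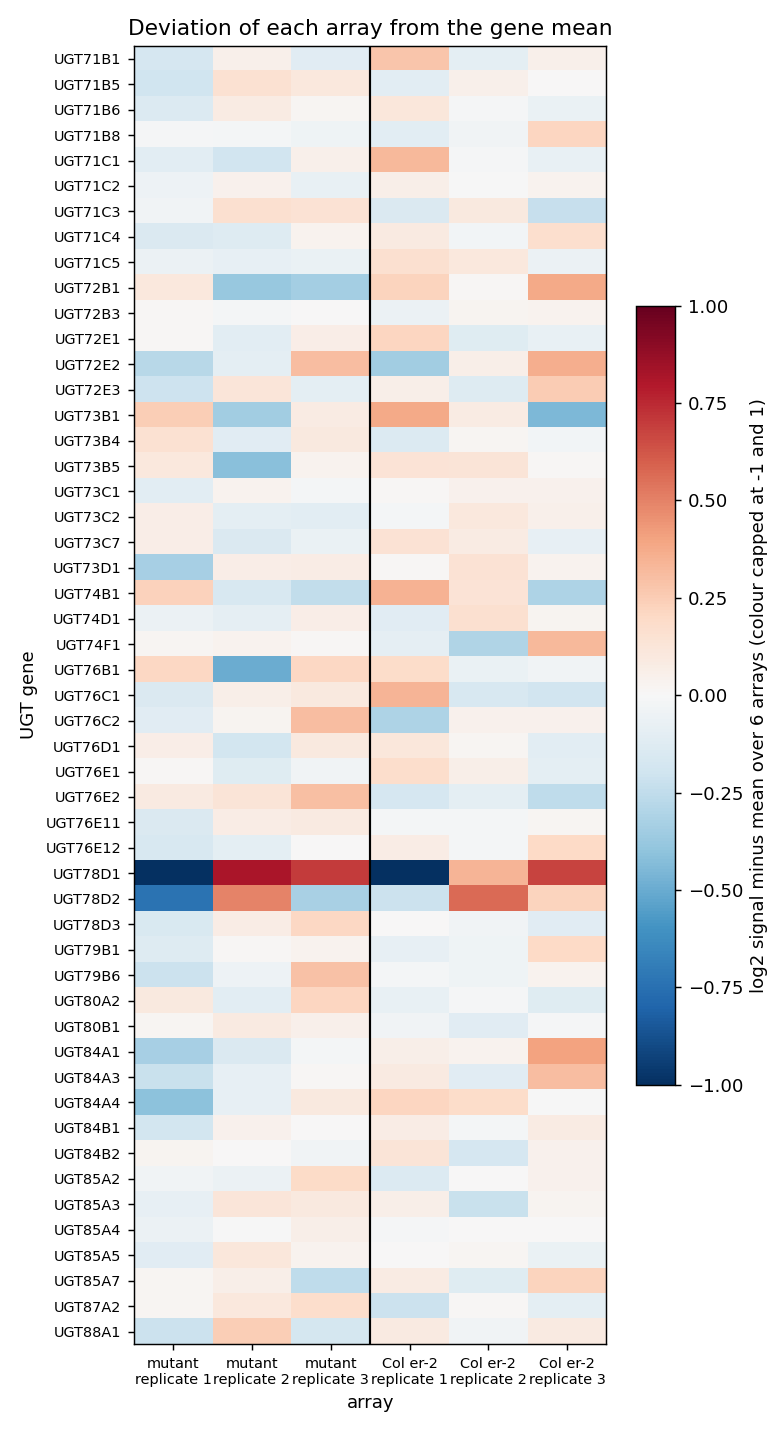
Deviation of each array from the gene's mean over 6 arrays (colour, log2 scale, capped at -1 and 1) for the 51 UGT genes (rows) on 3 mutant and 3 Col er-2 arrays (columns, divided by the line). UGT78D1 and UGT78D2, with ranges of 2.11 and 1.30, are the darkest rows, and UGT76E2 is above its mean on the 3 mutant arrays and below it on the 3 Col er-2 arrays.

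By gene order in the TAIR10.1 table, 24 of the 51 genes lay in 10 runs with no other protein-coding gene between them. In 8 of the 10 runs the neighbours fell into different signal bands, as in UGT85A7, UGT85A2, UGT85A5 and UGT85A3, where UGT85A2 alone was above the 75th percentile. Each band, set by the quartiles, holds about 25.0% of all probe sets. Genes taken without regard to position would thus often differ in band too, and no such share was computed. UGT84A1, UGT84A3 and UGT84A4 form 1 of the 10 runs (AT4G15480 to AT4G15500), in which the differences ran from -0.33 to -0.19. UGT78D1 (AT1G30530) lies 5 genes from PHV (AT1G30490) and UGT73B1 (AT4G34138) 138 genes from ATHB8 (AT4G32880), and these were the only 2 members within 200 genes of a mutated locus. UGT73B1 differed by -0.01 (limma adjusted p = 0.997), and UGT78D1 had an adjusted p of 0.981.

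Genes that supply UGTs or make their acceptors were read from 9 lists with 215 entries, of which 26 genes were named on the array. None of the 26 passed limma's adjusted threshold, and 2 had an unadjusted p under 0.05 (7.69%, against 7.47% of all probe sets), a share near that of the whole array. The first was GH3.5, which conjugates auxin to amino acids, with signals of 5.89, 5.79 and 5.69 in the mutant and 5.31, 5.28 and 5.38 in Col er-2. It differed by 0.46 without overlap (adjusted p = 0.196). The second was REF1, an aldehyde dehydrogenase that makes ferulic and sinapic acid, the acceptors of UGT84A enzymes. Its signals were 8.85, 8.97 and 8.53 in the mutant and 9.29, 9.03 and 8.96 in Col er-2, which overlapped by 0.0026. The difference of -0.31 had an unadjusted p of 0.0491 and a limma adjusted p of 0.667.

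Within the phenylpropanoid and monolignol list, 6 of 23 entries were named, 0 of 6 passed, and 5 of 6 had lower mean signals in the mutant, where 47.4% of all probe sets did, with a median of -0.15 (0.0076 over all probe sets). CCOAMT, a methyltransferase of the pathway, differed by -0.20 (limma adjusted p = 0.739) at a mean signal of 4.52. In the detoxification list 8 of 37 were named, all glutathione transferases of the tau class, and 0 of 8 passed. GSTU18 differed by -0.19 and GSTU22 by -0.19, with adjusted p of 0.723 and 0.748. Of 5 named auxin conjugation genes, GH3.9 differed by 0.16, and of 3 flavonoid synthesis genes CHIL and BAN differed by -0.41 and 0.11, with adjusted p from 0.803 to 0.900. USP, which makes UDP-sugars from sugar phosphates and was the only named gene of 37 in the UDP-sugar list, differed by 0.05 (95% confidence interval -0.54 to 0.64). BCAT4, of glucosinolate chain elongation, differed by 0.05, and BGLU33 and BSMT1, of abscisic acid and salicylic acid turnover, by 0.06 and -0.0043. The cytokinin and brassinosteroid lists had no gene named here.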

How the data were processed

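RNA of 6 root tip samples was measured on ATH1 arrays. The deposited values are log2 signals of 22810 probe sets on each array. Per the submitters' processing notes the tools were Affymetrix Expression Console, RMA and limma, with no version or role given, and RMA signals are inferred from those names and the range of values. RMA makes arrays nearly equal in distribution, so a shift of most genes would not show, and it compresses differences of dim probe sets. From these, 64 control probe sets were left out and 22746 entered 1 fit of the genotype difference (limma 3.58.1, R 4.3.3, lmFit, eBayes, Benjamini-Hochberg). Precision is limited by the 3 arrays of a genotype, with a median standard error of 0.10 for UGT differences. The fit was tested on simulated data over 22746 probe sets, with 100 shifted by log2 1 and 100 by log2 0.5. It recovered 90.0% of the former and 21.2% of the latter, and 6.02% of its calls were false. Simulated spreads were drawn from the prior of the fit, with independent noise on each array and more changed probe sets than were called here. These shares therefore do not give the recovery on the real arrays.

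Of the probe sets, 13513 named 1 gene, 503 several and 8730 were not listed. The deposited values come with no genome build, and the TAIR10.1 gene table served for names and gene order alone, so no coordinates are printed. The genes described singly were those called, the 10 with the smallest p, the 10 with the highest and 5 with the lowest mean signal, and up to 2 genes per other list. Members that illustrate a subfamily or an acceptor, UGT78D1, DFR, HCT, GSTU27 and the tissue markers fall outside that rule. HCT and GSTU27 were named for the order of replicate 1 in their values. Members and lists were chosen with earlier results of these data known. Alternatives tried were leaving out single arrays, a block for the replicate number, a filter at the 35th percentile, an adjusted p under 0.1, names from the probe table alone, other priors, centring, repeated quantile normalization, array weights, an equal-variance test and, added after the data were seen, replicates 2 and 3 alone.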

Additional observations from a re-analysis of the deposited data

How the results depend on the processing

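No UGT gene and no gene of the supply and acceptor lists passed an adjusted p under 0.05 in any alternative, nor did any UGT gene under 0.1 with all arrays. The count of UGT genes at an unadjusted p under 0.05 was 2 to 6 with 1 array left out (3.92% to 11.8%, against 4.67% to 8.24% of all probe sets). The UGT share was above that of all probe sets without mutant replicate 2, mutant replicate 3 or wild type replicate 2, and below it without each other array. With the replicate block the count was 4 (7.84%, against 9.39% of all probe sets). The gene added under the block was UGT78D2 (difference -0.38, unadjusted p = 0.0110, limma adjusted p = 0.339). The replicate numbers are not shown to pair the arrays, since deviations of same-numbered arrays correlated at 0.504, 0.07 and 0.176, and the block changed no call. The median UGT difference stayed between -0.07 and -0.0082. Of 324 recomputed differences of 22 genes, 304 kept their direction and 20, in 9 genes, turned sign, none of them called; the cause was not tested. Array weights turned UGT72E2 (0.060) and UGT76B1 (0.066), median centring UGT79B6 (-0.010) and UGT84B2 (-0.023), repeated quantile normalization UGT72B3 (0.0057), and replicates 2 and 3 alone UGT73B4 (-0.0060). With 1 array left out, the genes that turned ran from -0.033 to 0.015 (UGT72B3), -0.23 to 0.12 (UGT72E2), -0.30 to 0.028 (UGT74B1), -0.12 to 0.013 (UGT74D1), -0.17 to 0.18 (UGT76B1), -0.13 to 0.13 (UGT79B6), -0.083 to 0.067 (UGT84B2) and -0.015 to 0.11 (UGT85A2). Above the median in place of the 75th percentile lay 23 genes, a lower threshold that cannot reduce the count. In the other settings 7 to 9 genes lay above the 75th percentile. Every UGT gene had 1 probe set, so the choice of the dimmest changed nothing. The filter at the 35th percentile left out 15 of 51 genes, whose low signals limit what a small difference shows.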
